A study of Mus musculus with 16 samples.

Results

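Creatine synthesis, uptake and phosphorylation are carried by a small group of genes, and 5 of them were followed here: *Gatm*, *Gamt*, *Slc6a8*, *Ckb* and *Ckmt1*. They were taken by symbol from a table of RNA-seq counts for 14474 genes, and all 5 were present. The libraries were made from immortalized mouse keratinocytes. MKα3− cells lack the α3 subunit of integrin and are called null in the labels. MKα3+ cells are the same cells with human α3 integrin put back and are called rescued. Each line was given either LN332, the basement membrane protein laminin-332, at 0.02 mg/mL or vehicle for 16 to 24 h. The vehicle, PBS with glycine and NaN3, was added in the same volume as the LN332 solution. All cells grew on collagen-coated dishes in low-calcium medium at 33 °C and 8% CO2, and each of the 4 groups has 4 replicates. The labels do not say whether replicates came from separate cultures, so p-values measure only the spread between these libraries, which may be technical. With 1 line of each kind, restored α3 and any other difference between the lines cannot be told apart.

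Creatine is made in a short pathway. The product of *Gatm* moves an amidino group from arginine to glycine, which gives ornithine and guanidinoacetate, and the product of *Gamt* then methylates guanidinoacetate to creatine with a methyl group from S-adenosylmethionine. Cells also take creatine up from outside through the transporter encoded by *Slc6a8*. Creatine kinases pass a phosphate between ATP and creatine, the mitochondrial form encoded by *Ckmt1* near the site where ATP is made and the cytosolic form encoded by *Ckb* near the sites where it is used. In the body the steps of synthesis are largely split between organs, while brain and muscle depend much on uptake.

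The genes were selected from the contrast of MKα3+ against MKα3− cells in vehicle, in which *Gatm* led, so the vehicle values of the lines are a description and carry no test. The tests below use the LN332-treated libraries of the lines, which did not enter that contrast, and the responses to LN332. The LN332-treated libraries come from the same lines and were fitted together with the vehicle libraries. The tests between lines are therefore not independent of the choice of genes. The responses share their vehicle or LN332 libraries with the contrasts between lines. Levels are CPM, counts per 1000000 counts of the library after its total was scaled with a TMM factor. Each adjusted p is a limma-voom value corrected over all 14474 genes by the Benjamini-Hochberg method, and a gene was counted as changed at an adjusted p under 0.05 with an absolute log2 fold change over 0.5.

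Libraries held between 21735708 and 29338370 counts, so that 1 count was worth at most 0.0489 CPM. Mouse *Itga3*, the gene missing its product in MKα3− cells, had between 4530 and 8830 counts in every library and did not separate the lines (log2 fold change 0.20, SE 0.15, adjusted p = 0.349 in LN332 libraries), and since the α3 put back is human, this count does not check the labels. All 6 keratinocyte markers were present, with a summed level between 7840 and 17906 CPM, and 2 of them, *Krt5* and *Trp63*, were lower in MKα3+ than in MKα3− cells under LN332 (log2 fold changes of -0.80 and -0.91). The others did not pass, with *Krt14* at 0.30, *Itga6* at -0.30, *Itgb4* at -0.001 and *Col17a1* at -0.82. Of 6 fibroblast markers 4 were in the table, summing to between 11.4 and 39.4 CPM over the libraries, and *Dcn* and *Lum* were not. Of 4 immune markers 3 were present, and their sum was between 30.3 and 53.7 CPM in MKα3− and between 36.0 and 86.0 CPM in MKα3+ libraries. *Ptprc* and *Cd68* among them stood at 0.62 and -0.10 on the log2 scale between the lines under LN332 and did not pass. *Csf1r* was higher in MKα3+ cells under LN332 (log2 fold change 0.89, adjusted p = 0.0360). The melanocyte marker *Pmel*, the only 1 of 4 present, was lower there (log2 fold change -0.93, adjusted p = 0.00760), at 1.17 to 1.65 CPM against 2.19 to 3.18 CPM. Of 6 muscle markers 3 were present, and their sum, nearly all from *Tnnt2*, was between 267 and 354 CPM in vehicle-treated and between 470 and 771 CPM in LN332-treated MKα3− libraries, against 277 to 317 and 313 to 478 CPM in MKα3+ libraries. *Tnnt2* was lower in MKα3+ than in MKα3− cells under LN332 (log2 fold change -0.70, adjusted p = 0.00137) and rose with LN332 in MKα3− cells (log2 fold change 0.97, adjusted p = 0.0147), while *Myog*, *Myod1* and *Tnnt3* were not in the table. *Des* and *Acta1* stood at -0.85 and 0.72 between the lines under LN332 and did not pass. For LN332 in MKα3− cells they stood at -0.84 and 0.68 and did not pass. The part of these marker differences in the values of the creatine genes was not tested. In bulk RNA, fewer cells with a transcript and less transcript per cell cannot be told apart.

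*Gatm*, which encodes the arginine:glycine amidinotransferase of the first step (Entrez 67092, chromosome 2, 122594473 to 122611277 on the minus strand in GRCm38.p6, the assembly of mm10), was nearly silent in MKα3− cells and well expressed in MKα3+ cells. Vehicle-treated MKα3− libraries held 0.421, 0.271, 0.992 and 1.52 CPM in replicates 1 to 4, and vehicle-treated MKα3+ libraries 51.9, 49.4, 53.5 and 52.7 CPM. In LN332 the MKα3− libraries held 0.504, 0.141, 0.215 and 0.929 CPM and the MKα3+ libraries 45.3, 48.2, 51.8 and 51.0 CPM. Every MKα3+ library stood far above every MKα3− library with either treatment. The MKα3− values rest on between 4 and 44 counts a library and the MKα3+ values on between 1129 and 1466.

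In the LN332-treated libraries the level of *Gatm* was 49.1 ± 2.95 CPM (SD, n = 4) in the rescued and 0.447 ± 0.357 CPM (SD, n = 4) in the null cells, and the fitted log2 fold change was 7.13 with an SE of 0.45 and a 95% interval of 6.18 to 8.07 (limma-voom, adjusted p = 4.61e-09). The ratio of the mean CPM was 110, which rests on the few counts of the MKα3− libraries: it was 171 without the LN332-treated MKα3− replicate 4 and 89.3 without replicate 2. With sample quality weights the log2 fold change was 7.79. As a description, the vehicle groups stood at 51.9 ± 1.80 and 0.801 ± 0.571 CPM (SD, n = 4), which is 6.29 on the log2 scale in the fit (SE 0.36). The order of the group means, from the highest, was MKα3+ in vehicle, MKα3+ in LN332, MKα3− in vehicle and MKα3− in LN332. Groups of the same line overlapped, and groups of different lines did not.

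*Gatm* was the member with the largest difference, and its upstream sequence is shown for that reason, from RefSeq in GRCm38.p6. It covers the 250 bases before the start of the transcript (chr2:122611278-122611527, minus strand), printed 5′ to 3′ with capitals for each match to a motif that was searched.
Gatm: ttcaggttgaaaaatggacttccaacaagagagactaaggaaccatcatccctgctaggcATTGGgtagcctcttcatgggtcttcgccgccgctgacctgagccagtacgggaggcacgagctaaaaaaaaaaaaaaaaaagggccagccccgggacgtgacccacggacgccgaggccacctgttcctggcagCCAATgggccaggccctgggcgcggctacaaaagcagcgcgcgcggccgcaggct
The search took CCAAT (the CCAAT box), TATAAA (the TATA box), TGANTCA (the AP-1 element), CACGTG (an E-box), CATTCC (the core bound by TEAD factors) and CCGCCC (a GC box), on both strands. The *Gatm* window held CCAAT 55 bases before the start and its reverse complement 190 bases before the start. It held none of the other motifs. Of the 32851 promoter windows in the reference, 33.8% held CCAAT, 12.4% TATAAA, 6.75% TGANTCA, 6.02% CACGTG, 12.6% CATTCC and 32.7% CCGCCC. The *Gatm* window had 59.2% G and C and 17 CG pairs, where the median window had 52.4% and 6.

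*Gamt*, the methyltransferase gene of the following step (Entrez 14431, chromosome 10, 80258151 to 80261025, minus strand), was low in every group. Vehicle-treated MKα3− libraries held 0.912, 0.882, 0.886 and 1.14 CPM and vehicle-treated MKα3+ libraries 0.509, 0.441, 0.313 and 0.648 CPM, which do not overlap. LN332-treated MKα3− libraries held 0.621, 0.706, 0.682 and 0.929 CPM and LN332-treated MKα3+ libraries 1.08, 0.406, 0.700 and 0.524 CPM, which do. No library held more than 33 counts of *Gamt* and 1 held 8. The vehicle difference, given as a description, was -0.997 on the log2 scale (SE 0.32). Under LN332 the log2 fold change was -0.17 (SE 0.32, limma-voom adjusted p = 0.718), and its 95% interval of -0.86 to 0.51 leaves room for a change in either direction. The order of group means was MKα3− in vehicle (0.955 ± 0.124 CPM), MKα3− in LN332 (0.734 ± 0.134), MKα3+ in LN332 (0.679 ± 0.296) and MKα3+ in vehicle (0.478 ± 0.139; SD, n = 4 in each), and neighbours in this order overlapped.

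*Slc6a8*, the creatine transporter of the plasma membrane (Entrez 102857, chromosome X, 73673133 to 73682502), had the highest counts of the 5 genes, between 3763 and 7405 a library. Vehicle-treated MKα3− libraries held 197, 198, 262 and 223 CPM and LN332-treated ones 146, 166, 237 and 260 CPM. Vehicle-treated MKα3+ libraries held 175, 196, 191 and 214 CPM and LN332-treated ones 156, 157, 166 and 168 CPM. The LN332-treated MKα3+ libraries were close together and below all vehicle-treated MKα3+ libraries, whereas the LN332-treated MKα3− libraries spread on both sides of them. The transporter did not pass the threshold between the lines under LN332, at -0.29 on the log2 scale with an SE of 0.15 and a 95% interval of -0.60 to 0.03 (limma-voom, adjusted p = 0.154). Group means fell in the order MKα3− in vehicle (220 ± 30.6 CPM), MKα3− in LN332 (202 ± 54.9), MKα3+ in vehicle (194 ± 16.0) and MKα3+ in LN332 (162 ± 5.85; SD, n = 4 in each), and only the last pair of neighbours did not overlap.

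*Ckb*, the brain-type cytosolic creatine kinase (Entrez 12709, chromosome 12, 111669355 to 111672338, minus strand), was low, with 28 to 87 counts a library. The vehicle-treated null cells gave 1.30, 1.63, 1.06 and 2.11 CPM and LN332-treated ones 2.06, 1.27, 1.01 and 1.71 CPM. The vehicle-treated rescued cells gave 1.53, 1.80, 3.02 and 2.34 CPM and LN332-treated ones 1.57, 1.75, 1.79 and 3.26 CPM. All 4 groups overlapped. Between the lines under LN332 the log2 fold change was 0.48 (SE 0.32, limma-voom adjusted p = 0.271), with a 95% interval of -0.19 to 1.16. Of the 3329 stretches of 100 bases in *Ckb* transcripts, 4.54% also occur in transcripts of *Gm12892*. How many counts of *Ckb* this touches was not examined. The other 4 genes shared none with another gene in GENCODE M21.

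*Ckmt1*, the ubiquitous mitochondrial creatine kinase (Entrez 12716, chromosome 2, 121357773 to 121363737), went the other way from *Gatm*. Without α3 and in vehicle, the libraries held 31.3, 17.7, 48.3 and 17.6 CPM and vehicle-treated MKα3+ libraries 10.5, 8.26, 9.32 and 8.71 CPM. LN332-treated MKα3− libraries held 19.0, 15.8, 45.7 and 13.4 CPM and LN332-treated MKα3+ libraries 7.03, 5.11, 5.56 and 4.31 CPM. Replicate 3 was the highest MKα3− library with either treatment, and the lowest MKα3− library was still above every MKα3+ library. Under LN332 the level was 5.50 ± 1.14 CPM in the rescued and 23.5 ± 15.0 CPM in the null cells (SD, n = 4). The fitted log2 fold change was -1.96 with an SE of 0.45 and a 95% interval of -2.90 to -1.02 (limma-voom, adjusted p = 0.00278). Without the LN332-treated MKα3− replicate 3 the log2 fold change was -1.57 (adjusted p = 0.00428 from limma-voom). The vehicle groups, described only, stood at 9.19 ± 0.963 and 28.8 ± 14.6 CPM (SD, n = 4), which is -1.51 on the log2 scale in the fit (SE 0.38). The order of group means was MKα3− in vehicle, MKα3− in LN332, MKα3+ in vehicle and MKα3+ in LN332, with overlap only between the MKα3− groups. The exons of *Ckmt1* overlap those of *Strc* on the opposite strand by 10 bases, and *Strc* is not in the table.

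The reference gives *Ckmt1* a pair of transcript starts, and the 250 bases before each are printed from RefSeq in GRCm38.p6 (plus strand, 5′ to 3′) because this gene also passed the threshold and can be set beside *Gatm*. The windows are chr2:121357526-121357775 for the upstream start and chr2:121358360-121358609 for the downstream start, and capitals again mark matches on either strand.
Ckmt1 upstream start: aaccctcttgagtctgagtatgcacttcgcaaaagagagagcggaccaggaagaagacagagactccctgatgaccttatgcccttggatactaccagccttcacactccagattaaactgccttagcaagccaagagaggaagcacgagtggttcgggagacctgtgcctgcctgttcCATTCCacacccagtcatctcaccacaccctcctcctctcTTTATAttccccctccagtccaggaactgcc
Ckmt1 downstream start: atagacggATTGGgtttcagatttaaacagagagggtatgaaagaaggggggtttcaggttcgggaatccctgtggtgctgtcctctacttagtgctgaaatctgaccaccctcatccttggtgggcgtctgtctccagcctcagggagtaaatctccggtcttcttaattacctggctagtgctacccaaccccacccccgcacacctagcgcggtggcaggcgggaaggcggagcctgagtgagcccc
The upstream window held CATTCC 71 bases and the reverse complement of TATAAA 31 bases before the start. The downstream window held only the reverse complement of CCAAT, 242 bases before the start. They had 4 and 9 CG pairs, against 17 in the *Gatm* window. A match is a description of the letters and does not show binding. *Gamt* held CCGCCC at 3 places, and *Ckb* held CCAAT at 2 places, TATAAA once and CATTCC once. No window was at hand for *Slc6a8*.

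**Figure D1:**
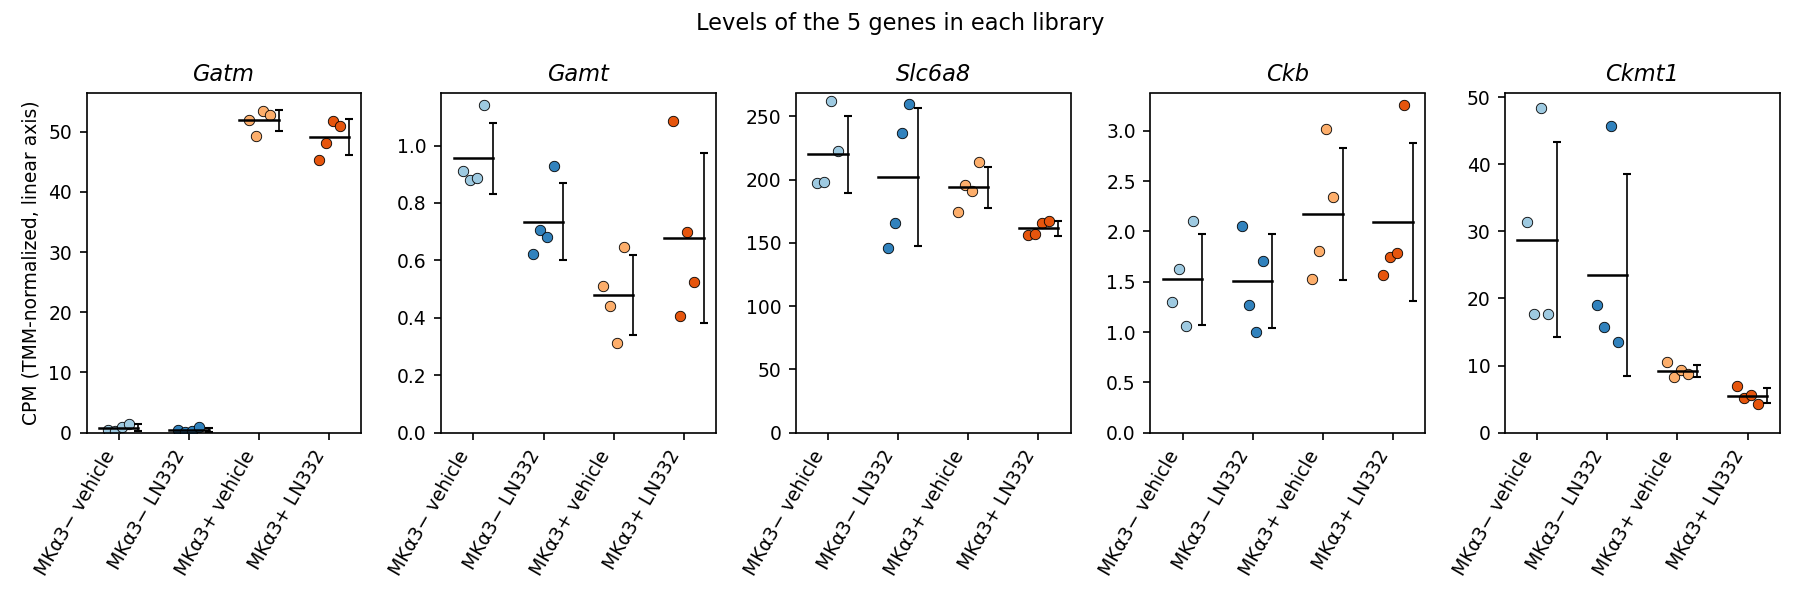
Level of each gene (CPM, linear axes starting at 0) in the 16 libraries, by group; points are libraries, horizontal lines are means and bars are ± 1 SD (n = 4). *Gatm* sits between 45.3 and 53.5 CPM in MKα3+ and at or below 1.52 CPM in MKα3− libraries, and *Ckmt1* is lower in all MKα3+ than in all MKα3− libraries.

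Under LN332, 2 of the 5 genes were past the threshold between the lines, *Gatm* higher and *Ckmt1* lower, where 20.6% of the 14474 genes were called. In vehicle 3 of the 5 were past it (*Gatm* higher, *Gamt* and *Ckmt1* lower), where 18.5% of all genes were called, and nothing is read from that count since the genes were chosen from this contrast. The median log2 fold change of the 5 genes under LN332 was -0.17, and that of all genes was 0.006.

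Levels of different genes were compared per kilobase of merged exons in GENCODE M21, which is not the annotation used for counting. On this scale *Slc6a8* was the highest in all groups, from 31.0 to 42.2 CPM per kb. In MKα3+ cells *Gatm* followed at 17.3 ± 0.601 (vehicle) and 16.4 ± 0.983 CPM per kb (LN332; SD, n = 4). In MKα3− cells *Ckmt1* took that place, at 11.5 ± 5.83 (vehicle) and 9.41 ± 6.01 CPM per kb (LN332), and *Gatm* was the lowest of the 5, at 0.267 and 0.149 CPM per kb. *Gamt* stayed between 0.331 and 0.661 CPM per kb in the group means. The 2 kinase genes thus stood at different levels, with *Ckmt1* making up 95.6% and 94.7% of their summed mean CPM per kb in vehicle- and LN332-treated MKα3− cells and 83.1% and 75.3% in MKα3+ cells. The muscle kinase genes *Ckm* and *Ckmt2* and the creatine carrier gene *Slc16a12* are not in the table.

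The response to LN332 was asked within each line. In MKα3+ cells *Ckmt1* was lower with LN332 than with vehicle in each of the 4 pairs of equal replicate number, at 0.671, 0.619, 0.597 and 0.495 of the vehicle level, and *Slc6a8* at 0.895, 0.802, 0.867 and 0.784. For both genes the 4 LN332 libraries lay below the 4 vehicle libraries without overlap. The share of all genes that separate in this way was not counted, so nothing is read from it. In the fit *Ckmt1* stood at -0.76 on the log2 scale (SE 0.49, limma-voom adjusted p = 0.709) and *Slc6a8* at -0.26 (SE 0.15, limma-voom adjusted p = 0.636). The exact two-sided permutation test gave p = 0.0286 for each, the smallest that 4 against 4 libraries allow. Any full separation of the groups gives this value, so it restates the lack of overlap and adds no support. After Benjamini-Hochberg adjustment over the 10 tests of genes and lines the p of this test was 0.143 for each. The test mixes the 8 libraries freely and ignores any pairing by replicate number. In MKα3+ cells the replicate numbers paired the libraries, and with the replicate block, which called 218 genes where the fit without it called 27, the adjusted p was 0.156 for *Ckmt1* and 0.239 for *Slc6a8* (limma-voom). When only the vehicle and LN332 libraries of MKα3+ cells were fitted, *Ckmt1* passed the threshold (log2 fold change -0.76, adjusted p = 0.0470 from limma-voom).

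*Gatm* in MKα3+ cells was also below vehicle in each of the 4 pairs, at 0.874, 0.976, 0.969 and 0.967, but its groups overlapped. Its mean was at 94.6% of the vehicle mean (log2 fold change -0.08, SE 0.13, 95% interval -0.35 to 0.19), and *Ckb* was at 96.2% (log2 fold change -0.06, SE 0.30). *Gamt* was at 2.13 and 2.24 of the vehicle level in replicates 1 and 3 and at 0.920 and 0.810 in replicates 2 and 4. Its log2 fold change of 0.43 (SE 0.35, limma-voom adjusted p = 0.809) did not pass. In the TMM-scaled limma-voom fit of all 16 libraries, without block or sample quality weights, 0 of the 5 genes were past the threshold in this response. There 0 had an unadjusted p under 0.05, and 0.187% of all genes were called. edgeR called 0 of the 5 and DESeq2 0 of the 4 for which it gave an adjusted p (not *Gamt*). With the replicate block the unadjusted p was 0.0135 for *Ckmt1* and 0.0322 for *Slc6a8* (limma-voom). Sample quality weights gave 0.0442 and 0.00531 (limma). *Gatm*, *Gamt* and *Ckb* stayed over 0.05 in both.

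**Figure D2:**
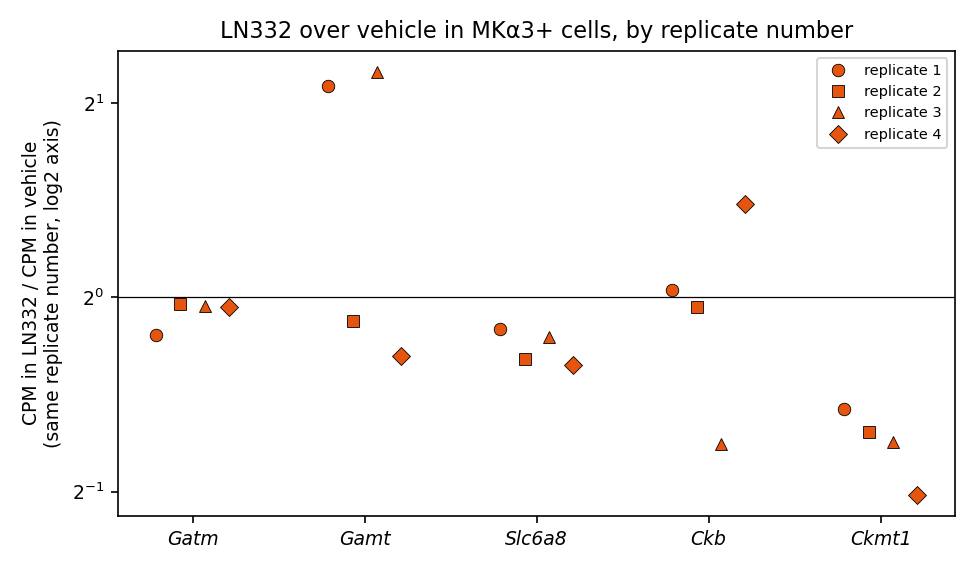
CPM with LN332 divided by CPM with vehicle in MKα3+ cells (log2 axis), for libraries of the same replicate number; each symbol is 1 replicate and the line at 1 marks no difference. *Ckmt1* lies between 0.495 and 0.671 and *Slc6a8* between 0.784 and 0.895, *Gatm* between 0.874 and 0.976, while *Gamt* and *Ckb* lie on both sides of the line.

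In MKα3− cells the LN332 and vehicle libraries overlapped for each gene. The log2 fold changes were -0.92 (SE 0.56) for *Gatm*, -0.39 (SE 0.30) for *Gamt*, -0.15 (SE 0.15) for *Slc6a8*, -0.04 (SE 0.33) for *Ckb* and -0.31 (SE 0.33) for *Ckmt1*, with adjusted p between 0.489 and 0.976 from limma-voom. The value of *Gatm* rests on means of 0.801 and 0.447 CPM, and at this depth its 95% interval ran from -2.10 to 0.26. With sample quality weights it was -1.65 (SE 0.62, limma adjusted p = 0.186). With limma-voom and no block or sample quality weights, 0 of the 5 genes passed, where 0.304% of all genes were called. In that fit 0 had an unadjusted p under 0.05. With sample quality weights the unadjusted p was 0.0157 for *Gatm* and 0.0448 for *Slc6a8* (limma). edgeR called 0 of the 5, and DESeq2 called 0 of the 3 for which it gave an adjusted p (not *Gamt* or *Ckb*).

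Averaged over the lines, 0 of the 5 genes passed in the TMM-scaled limma-voom fit without block or sample quality weights. There 0 had an unadjusted p under 0.05, and 1.35% of all genes were called. edgeR called 0 of the 5 and DESeq2 0 of the 4 with an adjusted p (not *Gamt*). With the replicate block the unadjusted limma-voom p was 0.00650 for *Ckmt1*, 0.0175 for *Slc6a8* and 0.0447 for *Gatm*, and over 0.05 for *Gamt* and *Ckb*. With library size alone it was 0.0482 for *Ckmt1* and 0.00787 for *Slc6a8*, and over 0.05 for *Gatm*, *Gamt* and *Ckb*. The averaged log2 fold change of *Ckmt1* was -0.54 (SE 0.29, adjusted p = 0.329 from limma-voom), and with the replicate block it passed the threshold (log2 fold change -0.54, SE 0.17, adjusted p = 0.0479 from limma-voom). This block also covers the MKα3− libraries. There the deviations from group means of same-numbered libraries had r from -0.0118 to 0.507. Their mean r was 0.247, against -0.0800 for libraries of other numbers. Since not every pair was over 0.1, the numbers were not taken to pair these libraries. Whether they share a batch is not known, so no response is concluded from that call. *Slc6a8* stood at -0.20 (SE 0.11, adjusted p = 0.299) and *Gatm* at -0.50 (SE 0.29, adjusted p = 0.357) in the same limma-voom contrast. The responses of the lines did not differ past the threshold for any of the 5 genes. For this difference limma-voom called 0% of all genes, with 164 of 14474 genes and 0 of the 5 at an unadjusted p under 0.05, and edgeR and DESeq2 called 0 of the 5. The difference of responses, MKα3+ minus MKα3−, was 0.84 (SE 0.57) for *Gatm*, 0.82 (SE 0.46) for *Gamt* and -0.45 (SE 0.58) for *Ckmt1* on the log2 scale, each with an interval that includes 0 in this fit. With sample quality weights the *Gatm* difference was 1.59 (SE 0.62, limma adjusted p = 0.999), and its unadjusted p was under 0.05.

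**Figure D3:**
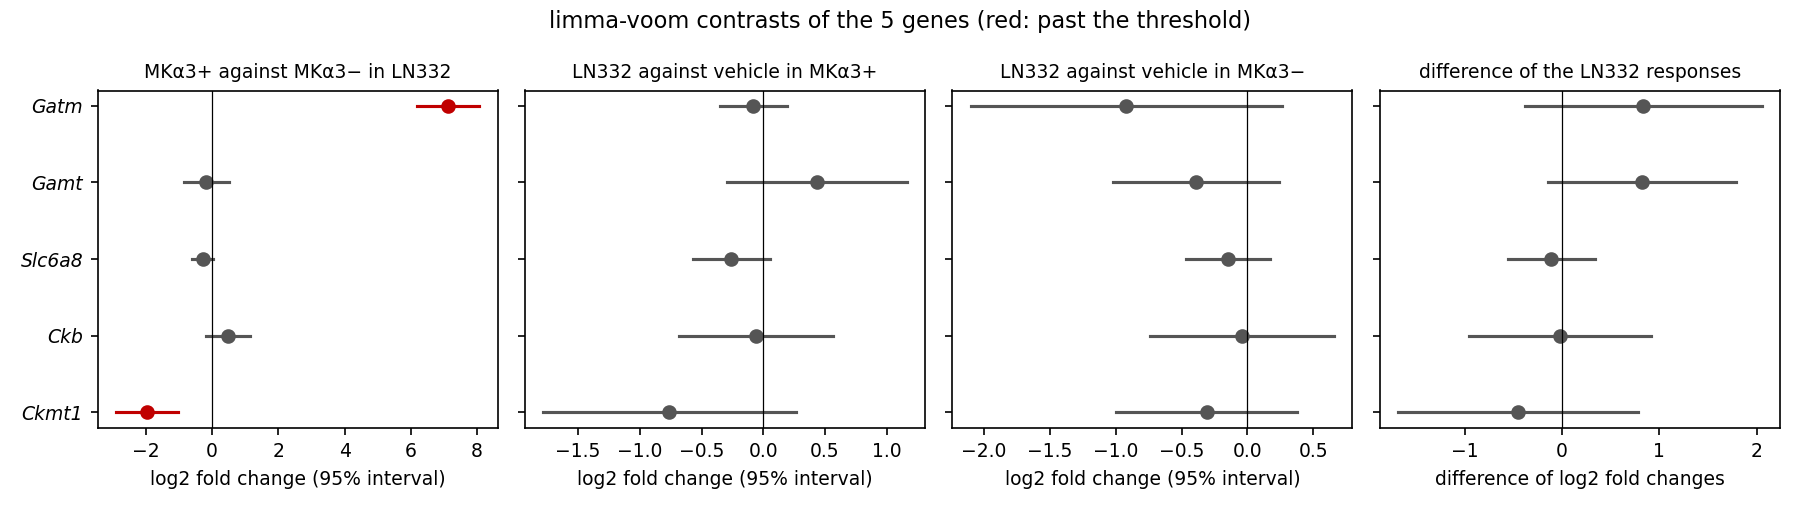
Log2 fold changes from limma-voom with 95% intervals for the 5 genes in the tested contrasts, with panels on scales of their own; red marks genes past the threshold. *Gatm* at 7.13 and *Ckmt1* at -1.96 are red between the lines under LN332, and none is red for the LN332 responses or their difference.

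*Gatm* and *Ckmt1* lie on chromosome 2 with 1.23 Mb between them and went in opposite directions, so the genes around each member were listed. Within 10 Mb of *Gatm*, the 218 other genes tested had a median log2 fold change of 0.18 between the lines under LN332, with 39 higher and 8 lower past the threshold (21.6%), and all 218 were below *Gatm*. Within 10 Mb of *Ckmt1*, a window that shares most of these genes, the median of 216 genes was 0.17, and 2 of them were below *Ckmt1*. The 3 nearest genes on each side of *Ckmt1* (*Ppip5k1*, *Map1a*, *Trp53bp1*, *Catsper2*, *Pdia3* and *Ell3*) had log2 fold changes between -0.75 and 0.15, and none passed. Of the 6 nearest to *Gatm*, the dual oxidase gene *Duox1* and its maturation factor gene *Duoxa1* were lower (log2 fold changes of -0.70 and -0.71, adjusted p = 0.0295 and 0.0374 from limma-voom). *Afg2b*, the nearest at 30.7 kb between gene centres, stood at 0.47, and *Shf*, *Slc30a4* and *Bloc1s6* at 0.10, 0.24 and -0.02, and none of these passed.

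The median gene around *Gamt* had a lower level in MKα3+ than in MKα3− cells. The 223 genes within 10 Mb had a median log2 fold change of -0.38 under LN332, with 11 higher and 60 lower past the threshold (31.8%, where of all genes 20.6% were called, 1696 higher and 1291 lower), and a median of -0.37 in vehicle. Its 6 nearest genes all had negative values under LN332. Of these, the ribosomal protein gene *Rps15* (-0.86) and *Pwwp3a* (-0.60) passed the threshold, and *Ndufs7*, *Dazap1*, *Efna2* and *Apc2* stood at -0.49, -0.29, -0.73 and -0.21. The vehicle value of *Gamt* itself, -0.997, was 0.62 below its regional median, and its value under LN332 was 0.20 above it. Around *Slc6a8* the median of 74 genes was 0.0006. The nearest gene on its lower side, *Dusp9*, which encodes a phosphatase of MAP kinases, was lower in MKα3+ cells (log2 fold change -1.82, adjusted p = 4.49e-07 from limma-voom), while *Bgn*, *Haus7*, *Bcap31* and *Plxnb3* stood between -0.44 and 0.29 and did not pass. Around *Ckb* the median of 122 genes was 0.15, and *Trmt61a*, 10.2 kb away, was higher (log2 fold change 0.67, adjusted p = 0.000131 from limma-voom), with *Mark3*, *2810029C07Rik*, *Eif5*, *Bag5* and *Coa8* between 0.04 and 0.34 and not past the threshold.

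**Figure D4:**
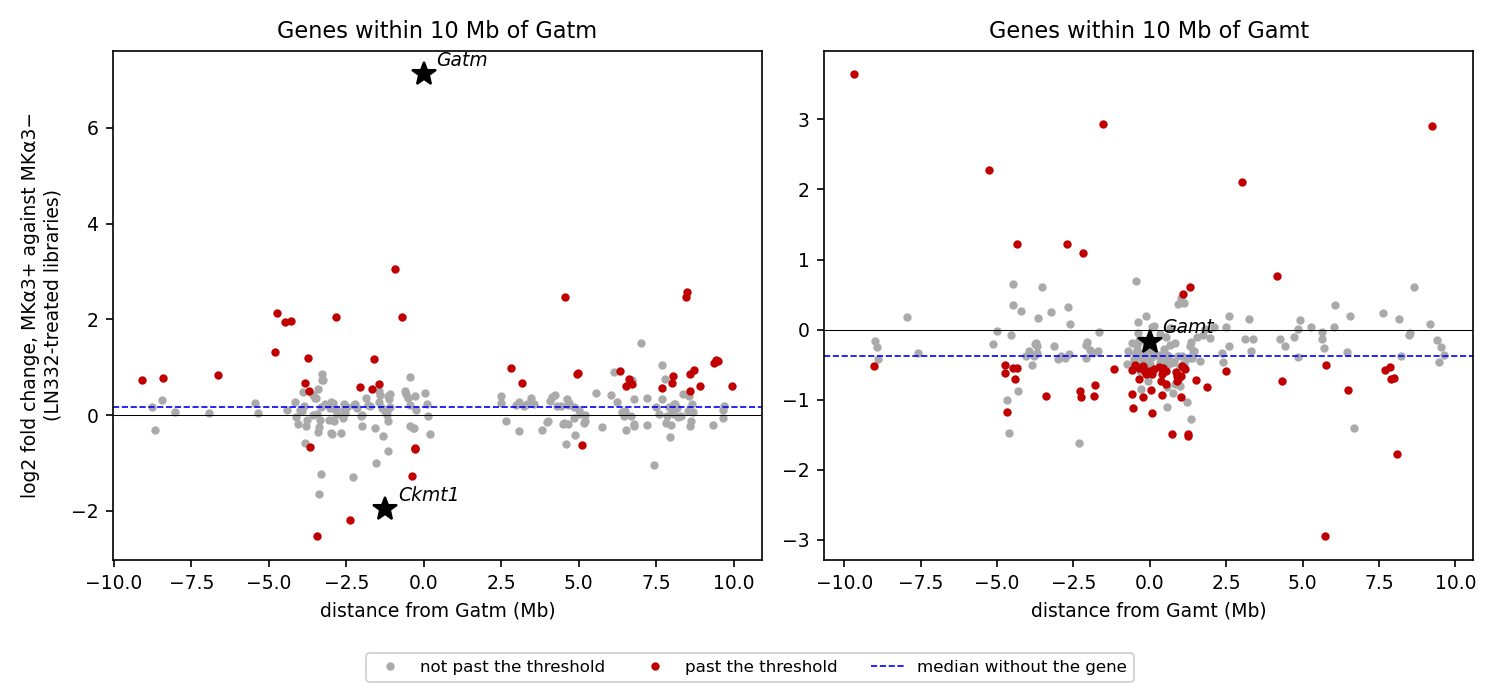
Log2 fold change between the lines in LN332-treated libraries (MKα3+ against MKα3−) against distance from *Gatm* or *Gamt* in Mb, 1 point per tested gene; stars mark the creatine genes, red points are past the threshold and the dashed line is the median of the other genes. *Gatm* stands at 7.13 above 218 genes with a median of 0.18, and *Gamt* at -0.17 lies among genes with a median of -0.38.

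The substrates of creatine synthesis are supplied by other pathways, and genes of these were read from lists. Of the arginine and ornithine genes, 2 of 9 were higher and 1 lower in MKα3+ than in MKα3− cells under LN332. The higher genes were *Odc1*, ornithine decarboxylase (log2 fold change 0.86, adjusted p = 0.00366), and *Slc25a15*, the mitochondrial ornithine carrier (log2 fold change 0.90, adjusted p = 0.000143), both from limma-voom. *Slc25a15* was at 29.2 ± 2.63 against 16.0 ± 3.50 CPM (SD, n = 4) with no overlap, while the libraries of *Odc1* overlapped. The lower gene was *Arg2*, mitochondrial arginase, at 0.175 ± 0.0944 against 0.585 ± 0.226 CPM (SD, n = 4), with log2 fold change -1.72 (limma-voom, adjusted p = 0.0146) resting on low counts. The enzymes of arginine synthesis, *Ass1* and *Asl*, stood at 0.07 and 0.10 and did not pass. The list's median was 0.10.

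Of the methyl donor genes, which make and use S-adenosylmethionine, 2 of 12 were higher and none lower under LN332, with a median of 0.09. They were *Mat2a*, the catalytic subunit of the enzyme that makes S-adenosylmethionine, at 138 ± 9.81 against 86.8 ± 17.8 CPM (SD, n = 4; log2 fold change 0.68, adjusted p = 0.000695), and *Nnmt*, nicotinamide N-methyltransferase, at 3.30 ± 1.91 against 0.267 ± 0.136 CPM (SD, n = 4; log2 fold change 3.46, adjusted p = 0.00148), both from limma-voom. The value of *Nnmt* rests on low counts in MKα3− cells. *Nnmt* uses the same methyl donor as *Gamt*. Of 5 glycine genes, 1 was higher, *Shmt1*, the cytosolic serine hydroxymethyltransferase (log2 fold change 0.62, adjusted p = 0.00309 from limma-voom), and the list's median was -0.08. The libraries of *Shmt1* overlapped between the lines. In the averaged LN332 response *Cth*, cystathionine gamma-lyase of the methyl donor list, rose (log2 fold change 0.56, adjusted p = 0.0110 from limma-voom), and no other gene of the pathway lists passed in a response to LN332.

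Other genes move or sense high-energy phosphate. Of 16 such genes, 3 were higher in MKα3+ cells under LN332 and none lower, with a median of 0.13. These were *Prkaa2*, a catalytic subunit of AMPK, at 1.18 ± 0.361 against 0.309 ± 0.148 CPM (SD, n = 4; log2 fold change 1.92, adjusted p = 0.00256), *Ak4*, a mitochondrial adenylate kinase (log2 fold change 1.13, adjusted p = 0.0116), and *Vdac3*, a channel of the outer mitochondrial membrane (log2 fold change 0.72, adjusted p = 0.000196), all from limma-voom. The value of *Prkaa2* rests on low counts, and the libraries of *Ak4* overlapped between the lines. Of the 3 relatives of the transporter gene *Slc6a8* in the table, *Slc6a6*, the taurine transporter (336 ± 85.6 against 207 ± 43.4 CPM, log2 fold change 0.69, adjusted p = 0.0114), and *Slc6a12*, the betaine transporter (2.94 ± 1.88 against 1.17 ± 1.14 CPM, log2 fold change 1.58, adjusted p = 0.0400; SD, n = 4, limma-voom), were higher. The libraries of *Slc6a6* and of *Slc6a12* overlapped between the lines. *Slc6a13* stood at -0.56 with an adjusted p of 0.429 from limma-voom. Of all genes 20.6% were called in this contrast, so these counts are not read as particular to the lists.

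**Figure D5:**
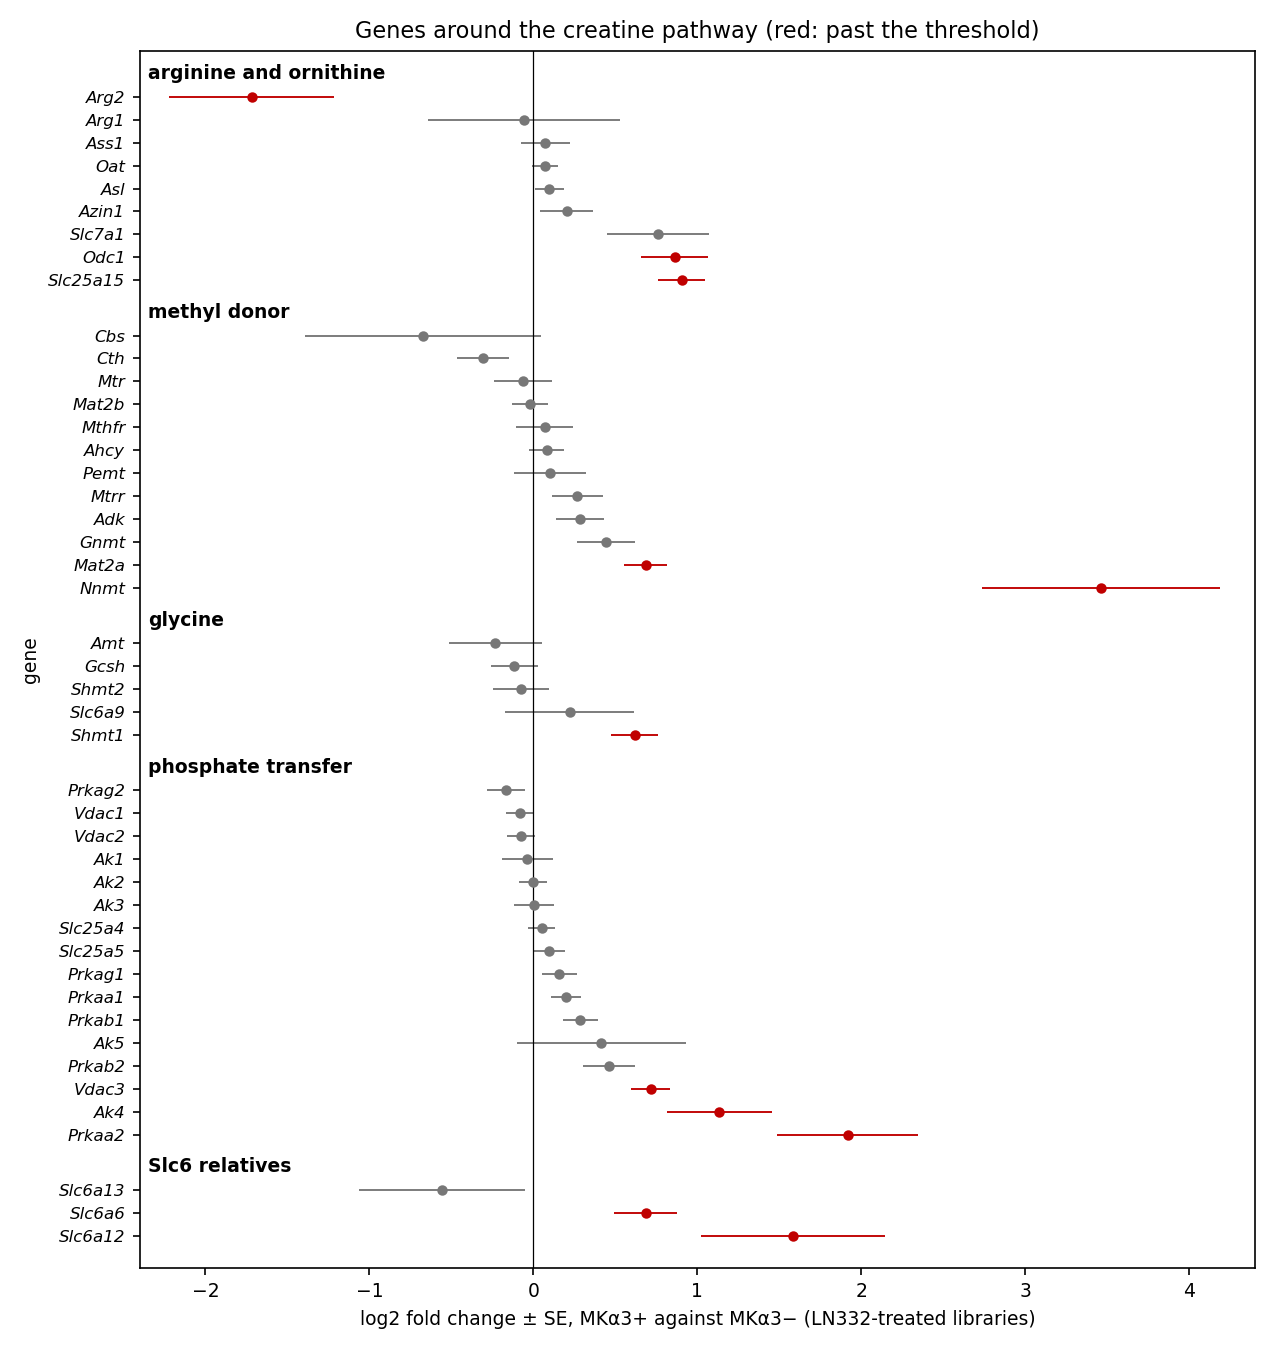
Log2 fold change ± SE between the lines in LN332-treated libraries for the 45 genes of the pathway lists in the table, grouped by list; red marks genes past the threshold. *Nnmt* is farthest to the right at 3.46 and *Arg2* farthest to the left at -1.72, and most genes lie near 0.

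The genes whose log2 CPM followed each member most closely over the 16 libraries were listed among genes whose log2 CPM averaged 1 or more. For *Gatm* these were *Tubb2b*, *Prickle1* and *Gramd1b*, with Pearson r of 0.991, 0.990 and 0.990. The lines form separate clusters of libraries in these values, and within the 8 MKα3+ libraries r was 0.45, -0.53 and 0.44, and within the 8 MKα3− libraries 0.89, 0.82 and 0.85. *Tubb2b*, a beta-tubulin gene, was at 25.9 CPM in the rescued and 0.620 CPM in the null cells under LN332. For *Ckmt1* they were *Car12*, a carbonic anhydrase gene, *Capn1*, a calpain gene, and *Tmem184a*, with r of 0.973, 0.966 and 0.966. Here r was 0.75, 0.94 and 0.90 within MKα3+ and 0.97, 0.86 and 0.88 within MKα3− libraries. The same libraries served to choose the genes, so r within a line is no separate check for any member. *Car12* was at 42.9 against 108 CPM between the lines under LN332 (log2 fold change -1.22, adjusted p = 0.00140 from limma-voom).

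For *Slc6a8* they were *Fam107a*, the clock output gene *Dbp* and *Ccdc3*, with r of 0.917, 0.887 and 0.884 over all libraries and, in the same order, 0.83, 0.85 and 0.68 within MKα3+ and 0.97, 0.92 and 0.92 within MKα3− libraries. For *Ckb* they included *Unc93b1* and *Cyba* (r of 0.824 and 0.806, or 0.94 and 0.92 within MKα3+ and 0.54 and 0.43 within MKα3− libraries), and for *Gamt* they were *Cracdl*, *Tkfc* and *Ankrd24* (r of 0.790, 0.787 and 0.769, or 0.79, 0.71 and 0.65 within MKα3+ and 0.39, 0.35 and 0.47 within MKα3− libraries), pairs that share low counts on the member's side. Among the members themselves, the r within MKα3− libraries was -0.76 for *Ckb* with *Ckmt1* and 0.69 for *Gatm* with *Gamt*, and within MKα3+ libraries -0.22 and -0.53. These values describe the 8 libraries of each line, of both treatments, and carry no test.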

How the data were processed

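RNA from 16 keratinocyte samples was sequenced as poly(A) libraries. The authors aligned the reads to mm10 (Rsubread), assigned them to Entrez genes by the annotation that comes with featureCounts, and deposited raw counts of 14474 genes; the strand setting is not given in the sources used here. Every gene already had over 0.5 CPM in at least 6 libraries, so the methods' filter (over 0.5 CPM in at least 3) removed 0 genes. TMM factors came from edgeR 4.0.16, and voom weights, contrasts and empirical Bayes statistics from limma 3.58.1 in R 4.3.3, in 1 fit of the 16 libraries with a coefficient per group. DESeq2 1.42.0 and edgeR's quasi-likelihood test were alternatives, as were other scalings, filters, sample weights, the replicate block and each library left out. Exact permutation tests compared mean CPM over 70 splits of 4 against 4 libraries, two-sided and without pairs. The procedure was tested on simulated data.

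Libraries of 1 group never differed by as little as sampling noise (lowest chi-square per degree of freedom 5.45). Replicate numbers are from the labels. The deviations of same-numbered libraries from their group means correlated between 0.202 and 0.620 for LN332 against vehicle in MKα3+ cells, every pair over 0.1, so the numbers were taken to pair those libraries, from the data and not from the design. In the other 3 contrasts (the lines in vehicle, the lines in LN332, and LN332 in MKα3− cells) the lowest r was 0.0913, -0.0469 and -0.0118. The mean r of same-numbered libraries there was 0.182, 0.286 and 0.247, against -0.0584, -0.0844 and -0.0800 for other numbers.

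The members and lists were chosen with earlier results of these data known. Genes named besides the members are list genes past the threshold in an LN332 response, at most 4 per list between the lines under LN332, the 3 nearest genes on each side of a member, and the 3 genes most correlated with it. Of these, 2 genes are not reported here. *Ass1*, *Asl* and *Slc6a13* and the absent genes were named after their values were seen. Positions and promoters are RefSeq's for GRCm38.p6, matched for 97.2% of genes; promoter sequences were found for 4 of the 5 members.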

Additional observations from a re-analysis of the deposited data

Results flagged for a closer look

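In each of 20 sets of 4 libraries (5 genes in 4 groups), the highest and lowest library were compared with the rest by Dixon's gap, which chance passes in about 1 of 20 sets. It was passed by 2. *Gamt* in vehicle-treated MKα3− replicate 4 was at 1.14 CPM, where the other 3 libraries held 0.882 to 0.912 CPM. *Ckb* in LN332-treated MKα3+ replicate 4 was at 3.26 CPM, where the other 3 held 1.57 to 1.79 CPM. Both genes have under 100 counts in every library.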

How the results depend on the processing

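Of 784 values of the 5 genes under other settings (leaving out 4 for which DESeq2 gave no adjusted p), 748 kept their direction and their side of the threshold, 4 lost and 2 gained a call, and 30 turned in direction, all of the latter in differences that passed under no setting. Some of the 784 could not move. The filter removed 0 genes, so the fit without it is the same, and another minimum fold change alters no direction. *Gatm* under LN332 lay between 6.82 and 7.79 (between 6.71 and 7.53 with 1 library left out) and *Ckmt1* between -2.10 and -1.96 (-2.15 to -1.57), and both kept their call throughout wherever they were tested. With at least 10 counts asked of every library, 12795 genes remained, without *Gatm* and *Gamt*, so 1 member was called in vehicle and 1 under LN332. With the replicate block 1 member was called in the averaged LN332 response, *Ckmt1* at -0.54 (adjusted p = 0.0479, limma-voom; 0.0991 to 0.330 in the other settings with all libraries), and with only the groups compared 1 was called for LN332 in MKα3+ cells, *Ckmt1* at -0.76 (adjusted p = 0.0470; 0.156 to 0.714 in the others); the cause was not tested, and the block changed no other call of the 5 genes. The block also covers the MKα3− libraries, which the replicate numbers were not taken to pair. The vehicle difference of *Gamt* lost its call at a minimum log2 fold change of 1 and without MKα3+ vehicle replicate 2 or 3 or MKα3− vehicle replicate 4 (-0.97, -0.82 and -0.91). The averaged response of *Gamt* was -0.054 with library size alone and -0.041 with sample quality weights. The difference of responses was 0.031 for *Ckb* with the replicate block and 0.0022 for *Slc6a8* with sample quality weights. With 1 library left out, *Gamt* ran from -0.42 to 0.022 between the lines under LN332 and from -0.10 to 0.12 in the averaged response. *Ckb* ran from -0.30 to 0.11 in MKα3+, from -0.22 to 0.15 in MKα3− and from -0.17 to 0.042 in the averaged response, and its difference of responses from -0.26 to 0.16, while that of *Slc6a8* ran from -0.25 to 0.033. Over all genes, LN332 in MKα3+ gave 27 calls, against 4 by edgeR, 123 by DESeq2, 3 with library size alone, 454 with sample quality weights, 107 with only the groups compared and 218 with the replicate block. In MKα3− it gave 44, against 165 by DESeq2, 74 with library size alone, 123 with sample quality weights, 1 with only the groups compared and 259 with the block. The averaged response gave 196, against 363 with the block and 464 with sample quality weights. Without a minimum fold change 4115 and 4654 genes were called between the lines in vehicle and LN332, and 1362 and 1345 at a minimum of 1. Depth limits *Gatm* in MKα3− cells and *Gamt* and *Ckb* throughout.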
